A study of Arabidopsis thaliana with 12 samples.

Results

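Alternative splicing at the donor end of introns was followed in 61 genes of *Arabidopsis thaliana* whose only listed splicing change upon a temperature shift was 1 alternative 5′ site (A5) event. The members were the A5 events whose gene has no other row in the authors' deposited table, 72 genes in all, less 11 genes left out by name or because their annotation text contains the word kinase. They make up 61 of 638 listed events and 61 of 511 listed genes. Columbia (Col-0) plants were grown at 16 °C under short days (8 h light, 16 h dark) for 5 weeks, and RNA of tissue enriched for the shoot apical meristem, from about 10 plants per sample, was sequenced. The 12 samples formed 4 groups of 3: plants moved to 25 °C and collected at day 1, day 3 or day 5 after the change, and plants left at 16 °C and collected at day 1. The labels name the tissue as apex and leaves of early stages, while the protocol says that leaves were removed; levels of tissue markers were not analysed here. The 16 °C group served all 3 warm groups, and plants of days 3 and 5 were also older than the 16 °C plants.

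An intron begins at its 5′ splice site, or donor, which is read by the U1 snRNP of the spliceosome and nearly always starts with the bases GT. When a pre-mRNA offers more than 1 donor for the same acceptor, the choice lengthens or shortens the upstream exon. A stretch that is a multiple of a codon in length keeps the reading frame, and any other length shifts it, which can place an early stop codon and expose the mRNA to nonsense-mediated decay. PSI (percentage spliced in, written here as a share from 0 to 1) is the part of a gene's transcripts, at that event, with the isoform the authors set as reference. The sources used here do not say which of both donors belongs to the reference isoform, so a higher PSI says that the reference isoform gained share, not that the exon became longer.

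The reference annotation (TAIR10.1) was searched for pairs of donors that are joined to the same acceptor in different transcripts. Such a pair was annotated in 41 of the 61 genes (67.2%), close to the 25 of 39 genes (64.1%) with other A5 events of the table, which include 6 of the 11 genes left out. It compares with 23.4% of the 154 genes whose only event was an alternative 3′ site, 27.3% of the 150 genes with introns whose only event was a retained intron, and 13.8% of the 24127 genes with introns in the annotation. Among genes with more than 1 annotated transcript, the figures were 41 of 52 members and 30.2% of 11009 genes. These shares were not tested. The members were chosen for an A5 event, which is itself a choice between donors of the same acceptor. The authors also assembled transcripts on the TAIR10 annotation. A larger share of annotated pairs than in the other gene sets therefore follows at least in part from how the members were chosen. Positions of the events inside their genes are missing from the table, so an annotated pair is not shown to be the measured one. Exactly 1 pair was annotated in 26 members. Their donors lay 3 to 588 bases apart with a median of 40 bases, against a median of 140 bases over the 2598 genes of the annotation that have exactly 1 pair. Donors at most 20 bases apart were no more common among them, with 5 of the 26 against 20.9% of the 2598 genes. Over all 78 annotated pairs of the 41 genes, the distance was a multiple of 3 in 34 (43.6%), against 39.6% of the 4891 pairs in the annotation. Among genes with exactly 1 pair it was so in 15 of the 26 members (57.7%) and in 41.8% of the 2598 genes. The stretch between the donors was coding in 14 of the 26, and 9 of these 14 were a multiple of 3 long. In 6 it lay in the 5′ UTR, in 1 in the 3′ UTR, and in 5 it was only partly coding, differed between transcripts or belonged to a gene with no coding sequence.

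**Figure D1:**
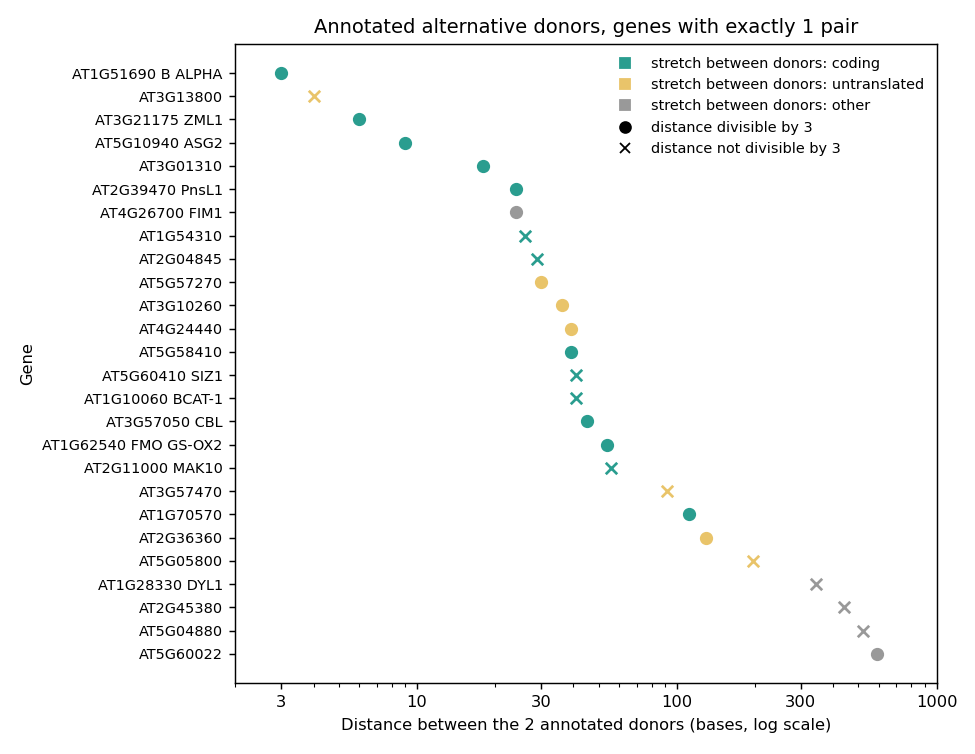
Distance in bases (horizontal, log scale) between both annotated donors in the 26 genes with exactly 1 annotated pair (vertical). Circles are distances divisible by 3 and crosses are not; colour gives the place of the stretch between the donors, and the closest pair, 3 bases apart, is that of *B ALPHA*.

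The donors are shown first for the 8 single-pair genes with the largest mean change in PSI, so that the choice offered to the spliceosome can be seen. Each is written 5′ to 3′ as the last 3 exon bases and the first 6 intron bases, with the GT that opens the intron in capitals, from the RefSeq genome of build TAIR10.1. Donors up to 20 bases apart are written as a single run with both GT in capitals.
AT5G57270 upstream donor (chr5:23203342-23203350, minus strand, 5′ UTR): gggGTgagt
AT5G57270 downstream donor (chr5:23203312-23203320): aacGTgaat
*B ALPHA* both donors (chr1:19167563-19167574, plus strand, coding): gtgGTaGTtgta
AT5G60022 upstream donor (chr5:24168028-24168036, minus strand, long non-coding RNA): cagGTaagt
AT5G60022 downstream donor (chr5:24167440-24167448): ctgGTtagc
AT5G04880 upstream donor (chr5:1422285-1422293, minus strand, transcribed pseudogene): gagGTtagg
AT5G04880 downstream donor (chr5:1421765-1421773): aatGTaggt
AT2G45380 upstream donor (chr2:18701531-18701539, minus strand, partly coding): aagGTacac
AT2G45380 downstream donor (chr2:18701092-18701100): aagGTactc
AT5G05800 upstream donor (chr5:1745131-1745139, minus strand, 5′ UTR): ccgGTaacg
AT5G05800 downstream donor (chr5:1744934-1744942): caaGTaatt
AT4G24440 upstream donor (chr4:12633287-12633295, plus strand, 5′ UTR): tcgGTaaac
AT4G24440 downstream donor (chr4:12633326-12633334): gagGTctta
*FMO GS-OX2* upstream donor (chr1:23154532-23154540, plus strand, coding): catGTattt
*FMO GS-OX2* downstream donor (chr1:23154586-23154594): atgGTtagt

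A further 3 coding pairs with close donors were chosen after their values had been seen, because their genes were called on all 3 days. *UEV1D-4* and *NF-YB1* also have more distant annotated pairs, 1 and 3 of them.
*UEV1D-4* (chr3:19495260-19495271, minus strand, donors 3 bases apart): aacGTaGTtata
*ZML1* (chr3:7423326-7423340, plus strand, donors 6 bases apart): aggGTactgGTaata
*NF-YB1* (chr2:16239708-16239720, plus strand, donors 4 bases apart): gagGTatGTtgct

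Every donor in the 78 annotated pairs of the 41 genes opened with GT. Likeness to a strong donor was counted as matches to the motif NAGGTAAGT, in transcription direction only, over its 8 fixed bases. The 114 donors that take part in a pair had 5.01 matches on average. The 525 other donors of the 61 members had 5.56, as did 131269 donors of all genes. Those 525 include donors of members without an annotated pair, so the means do not compare donors within the same genes. Paired donors of all genes were not counted apart, so whether fewer matches are particular to the members was not tested. At least 7 matches were found in 4.39% of the paired donors, 14.3% of the others and 14.9% of all donors, and all 8 in 0.877%, 0.762% and 0.797%. The upstream donor of AT5G60022 was the paired donor that matched all 8. In the 26 single pairs the upstream donor had more matches in 13, the downstream donor in 7, and they were equal in 6.

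Upon the shift to 25 °C, the 61 events moved in both directions, with more of them towards lower PSI. The mean PSI of days 1, 3 and 5 at 25 °C was higher than at 16 °C in 27 members (44.3%) and lower in 34. Over all 638 listed events, 323 were higher and 315 lower. The exact Clopper-Pearson 95% interval of the members' share was 31.5 to 57.6%. It treats events as independent draws, although all share the 16 °C group and AT4G24430 and AT4G24440 share a locus name. It gives no spread between plants and supports no inference beyond the list. The word called is used below for an event that the authors' deposited table marks as different from 16 °C on that day, by a MISO Bayes factor on merged replicates. On day 1, 15 members were called with higher PSI (24.6%, against 27.4% of all listed events) and 23 with lower PSI (37.7%, against 32.4%). On day 3, 16 were called higher (26.2%, against 30.7%) and 17 lower (27.9%, against 27.3%). On day 5, 8 were called higher (13.1%, against 27.0%) and 20 lower (32.8%, against 25.9%). For days 1 and 3 these shares lie near those of the whole table. The day 5 shares stand further apart, but whether members differ from other events was not tested, and every listed event had been called on at least 1 day.

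**Figure D2:**
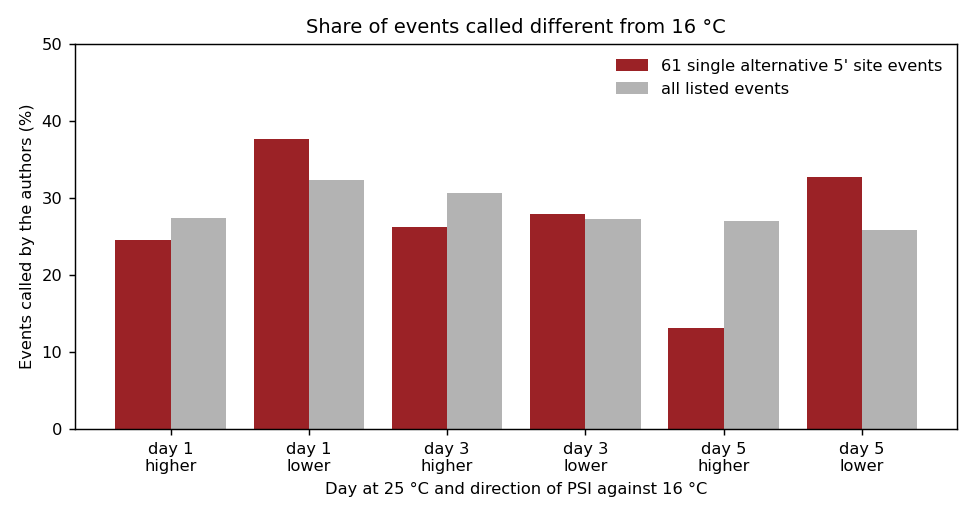
Share in percent (vertical) of the 61 single A5 events (red) and of all 638 listed events (grey) that the authors called higher or lower than 16 °C, by day at 25 °C (horizontal). The widest gap is on day 5, where 13.1% of the A5 events and 27.0% of all events were called higher.

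Changes were moderate in size. The median absolute change was 0.11 on day 1, 0.11 on day 3 and 0.10 on day 5, against 0.11 on each day over all listed events. A mean change of at least 0.1 upwards was seen in 12 members (19.7%, against 28.5% of listed events) and downwards in 20 (32.8%, against 29.0%). All 61 members kept the sign of their change on the 3 days, as did 97.6% of listed events; the days share the 16 °C value, so this is a description. The table gives 1 value per group without read numbers, so depth is unknown and no replicate error can be given. Below, rose and fell refer to called days, and values of other days are given as they stand.

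**Figure D3:**
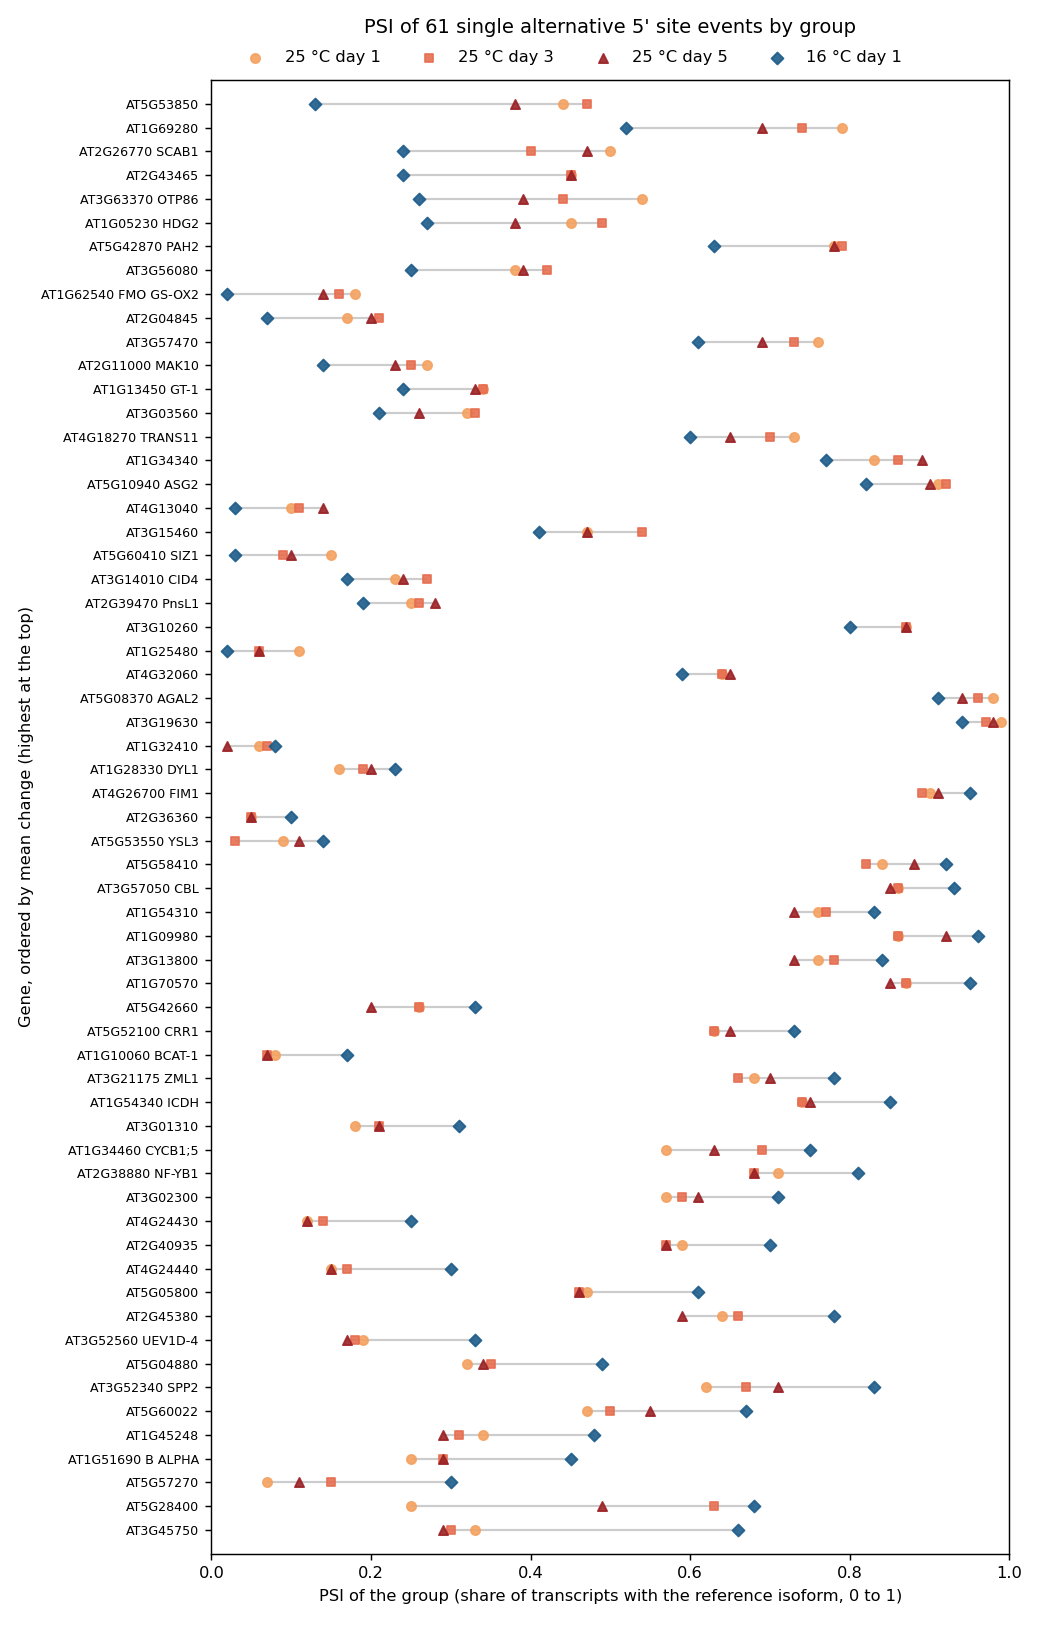
PSI (horizontal, 0 to 1) of the 61 single A5 events in the 3 groups at 25 °C (warm colours) and at 16 °C (blue diamonds), 1 authors' value per group, ordered by mean change. The largest mean changes are 0.30 in AT5G53850 at the top and -0.353 in AT3G45750 at the bottom.

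The 6 largest mean changes upwards were those of AT5G53850 (0.30), AT1G69280 (0.22), *SCAB1* (0.217), AT2G43465 (0.21), *OTP86* (0.197) and *HDG2* (0.17). AT5G53850 (chromosome 5, coding span 21861617 to 21864817), annotated as a haloacid dehalogenase-like hydrolase and known as an enzyme of methionine salvage, rose to 0.44, 0.47 and 0.38 on days 1, 3 and 5, against 0.13 at 16 °C. It was the only one of these 6 that was called on all 3 days. AT1G69280 (chromosome 1), of unknown function, rose to 0.79 on day 1 and 0.74 on day 3, against 0.52 at 16 °C, and had 0.69 on day 5. *SCAB1* (AT2G26770, chromosome 2, 11404257 to 11407743), a plant actin-binding protein of stomatal closure, rose to 0.47 on day 5, against 0.24 at 16 °C, with 0.50 and 0.40 on days 1 and 3. Its larger value of day 1 was not called. AT2G43465 (chromosome 2, 18047732 to 18049709), which encodes an RNA-binding protein with an ASCH domain, stood at 0.45 on each warm day, called on days 1 and 3, against 0.24 at 16 °C.

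The 6 largest mean changes downwards were those of AT3G45750 (-0.353), AT5G28400 (-0.223), AT5G57270 (-0.19), *B ALPHA* (-0.173), AT1G45248 (-0.167) and *SPP2* (-0.163, a value shared by AT5G60022). AT3G45750 (chromosome 3, 16793855 to 16796913), a nucleotidyltransferase family gene, fell to 0.30 on day 3 and 0.29 on day 5, against 0.66 at 16 °C, and had 0.33 on day 1. That uncalled day 1 change was the largest absolute change of any member on an uncalled day (0.33). AT5G28400 (chromosome 5), of unknown function and annotated as most similar to AT5G28320, fell to 0.25 on day 1, against 0.68 at 16 °C, and stood at 0.63 and 0.49 on days 3 and 5. Reads shared with that relative would make its PSI less certain. AT5G57270 (chromosome 5, 23200984 to 23203105), of the core-2/I-branching glycosyltransferase family, fell to 0.07, 0.15 and 0.11 on days 1, 3 and 5, against 0.30 at 16 °C. *B ALPHA* (AT1G51690, chromosome 1, 19164124 to 19169974), a regulatory subunit of protein phosphatase 2A that directs the enzyme to its substrates, fell to 0.25, 0.29 and 0.29, against 0.45 at 16 °C.

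Calls on all 3 days were made for 11 members (18.0%, against 21.9% of listed events), of which 2 were higher and 9 lower at 25 °C. Over all listed events the split was 63 higher and 77 lower. The 2 higher ones were AT5G53850 and *PnsL1*, and the lower ones included AT5G57270, *B ALPHA*, *UEV1D-4*, *NF-YB1* and *ZML1*. An annotated donor pair was present in 8 of the 11, and donors at most 9 bases apart in 4 of them (*B ALPHA*, *UEV1D-4*, *NF-YB1* and *ZML1*), against 9 of all 61 members. The limit of 9 bases was not a planned setting, and 12 members have donors at most 20 bases apart. Some of these genes have further pairs, and no pair is shown to be the measured one. The counts therefore do not link close donors to calls on all 3 days. These 4 fell, as did most members called on all 3 days. Of the other 5 with donors this close, *HDG2*, *ASG2* and *CID4* (6, 9 and 6 bases apart, coding) had mean changes of 0.17, 0.09 and 0.0767. Those of AT3G13800 and AT1G32410 (4 bases apart, untranslated) were -0.0833 and -0.03. Since no pair is matched to its event, these values do not tie close donors to either direction.

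Grouped by role, the 6 genes of RNA processing and translation were higher in 5 and lower in 1, and genes of amino acid, sulphur and central metabolism were higher in 2 and lower in 7. Direction is relative to a reference isoform that can be either donor, so equal signs within a list do not mean that the same donor gained. The lists were drawn up with the members' values already known, and no list was tested. For some genes the place in a list is not given by the annotation text.

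**Figure D4:**
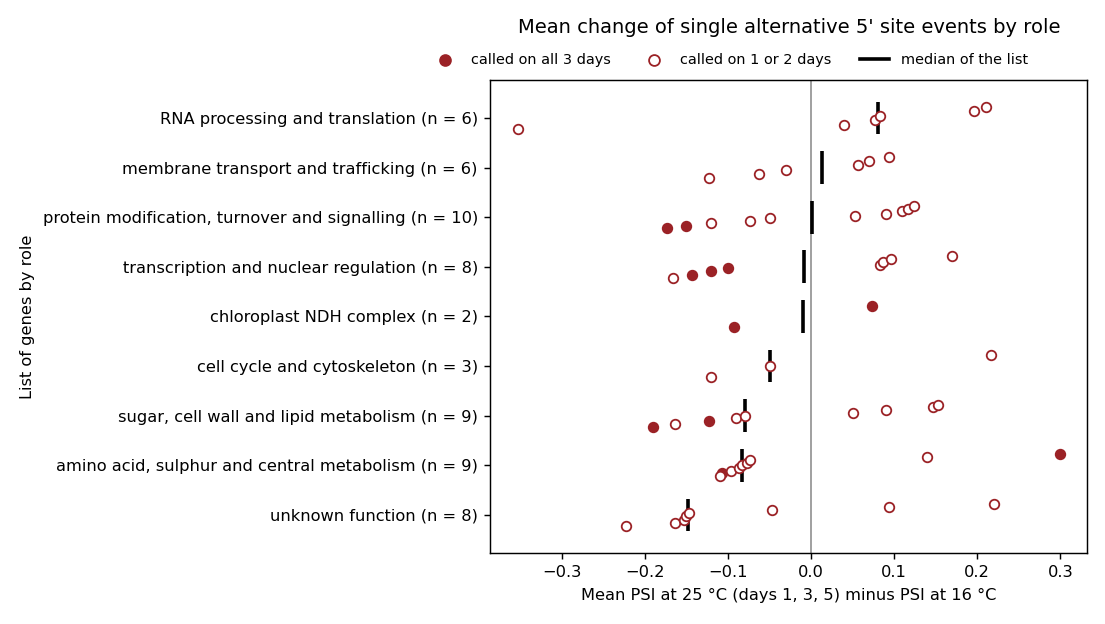
Mean PSI at 25 °C minus PSI at 16 °C (horizontal) for each of the 61 events, by list (vertical); filled circles were called on all 3 days, open circles on 1 or 2 days, and black bars are list medians. Medians run from -0.148 for genes of unknown function to 0.08 for RNA processing and translation.

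Among genes of transcription and nuclear regulation, 4 were higher and 4 lower, and the 3 that were called on all days were all lower. *NF-YB1* (AT2G38880, chromosome 2, 16238685 to 16240316), a histone-fold subunit of the CCAAT-binding NF-Y complex, fell to 0.71, 0.68 and 0.68 on days 1, 3 and 5, against 0.81 at 16 °C. *ZML1* (AT3G21175, chromosome 3, 7422832 to 7423765), a GATA-type zinc finger factor, fell to 0.68, 0.66 and 0.70, against 0.78. AT4G24440 (chromosome 4, 12633460 to 12634553), the gamma chain of the general transcription factor TFIIA, fell to 0.15, 0.17 and 0.15, against 0.30. The nucleolar histone methyltransferase-related gene AT1G45248 fell to 0.29 on day 5, against 0.48 at 16 °C, with 0.34 and 0.31 on days 1 and 3. Of those with higher PSI, *HDG2* (AT1G05230, chromosome 1, 1513388 to 1517024), a homeodomain factor of the epidermis, rose to 0.49 on day 3, against 0.27 at 16 °C, with 0.45 and 0.38 on days 1 and 5. *GT-1* (AT1G13450), a trihelix factor that binds light-responsive promoters, rose to 0.33 on day 5, against 0.24, and had 0.34 on both earlier days. *SIZ1* (AT5G60410, chromosome 5, 24295226 to 24300792), the SUMO ligase with roles in flowering and stress, rose to 0.15 on day 1, against 0.03, with 0.09 and 0.10 on days 3 and 5. A gene for an integrase-type DNA-binding protein, AT4G13040, rose to 0.11 and 0.14 on days 3 and 5, against 0.03, with 0.10 on day 1. In *SIZ1* and AT4G13040 the reference isoform was therefore rare at both temperatures.

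Of the genes for RNA processing and translation, AT2G43465 and AT3G45750 were described above. *OTP86* (AT3G63370, chromosome 3, 23402080 to 23405180), a pentatricopeptide repeat protein needed for RNA editing in chloroplasts, rose to 0.54 on day 1 and 0.44 on day 3, against 0.26 at 16 °C, and had 0.39 on day 5. The rRNA processing Brix domain gene AT3G15460 rose to 0.54 on day 3, against 0.41, with 0.47 on days 1 and 5. *CID4* (AT3G14010), whose protein can bind the C-terminal domain of poly(A)-binding protein, rose to 0.27 on day 3, against 0.17, with 0.23 and 0.24 on days 1 and 5. The radical SAM enzyme gene AT3G19630 rose to 0.99 on day 1, against 0.94, with 0.97 and 0.98 later, so that the other isoform was scarce in every group.

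Among enzymes of amino acid, sulphur and central metabolism, AT5G53850 and *FMO GS-OX2* were the 2 with higher PSI. *FMO GS-OX2* (AT1G62540, chromosome 1, 23151870 to 23155427), a flavin monooxygenase that oxidises the side chain of aliphatic glucosinolates, rose to 0.18 on day 1 and 0.14 on day 5, against 0.02 at 16 °C, with 0.16 on day 3. *CBL* (AT3G57050), cystathionine beta-lyase of methionine synthesis, fell to 0.86 on day 1 and 0.85 on day 5, against 0.93, with 0.86 on day 3. *BCAT-1* (AT1G10060), a branched-chain amino acid transaminase, fell to 0.07 on days 3 and 5, against 0.17, with 0.08 on day 1. *ICDH* (AT1G54340), an isocitrate dehydrogenase, was called on all days and fell to 0.74, 0.74 and 0.75, against 0.85. AT3G01310 fell to 0.18 on day 1, against 0.31, and stood at 0.21 on both later days. Its place in this list rests only on its annotation to the phosphoglycerate mutase-like family, and a role in central metabolism is not shown. On day 5 alone, calls were made for AT3G13800, a metallo-hydrolase (0.73, against 0.84), AT1G54310, a methyltransferase family gene (0.73, against 0.83), and AT1G70570, a putative anthranilate phosphoribosyltransferase (0.85, against 0.95). On days 1 and 3 these 3 genes had 0.76 and 0.78, 0.76 and 0.77, and 0.87 on both days, in that order.

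In sugar, cell wall and lipid metabolism 4 events were higher and 5 lower. *SPP2* (AT3G52340, chromosome 3, 19407412 to 19409182), a sucrose phosphatase of the last step of sucrose synthesis, fell to 0.62 on day 1, against 0.83 at 16 °C, with 0.67 and 0.71 on days 3 and 5. *PAH2* (AT5G42870, chromosome 5, 17185719 to 17189681), a phosphatidate phosphatase, rose to 0.79 on day 3, against 0.63, and had 0.78 on days 1 and 5. AT3G56080, a methyltransferase family gene, rose to 0.42 on day 3, against 0.25, with 0.38 and 0.39 on days 1 and 5. Its annotation text is the same as that of AT1G54310 in the preceding list, so that text does not decide the place of either. The hydrolase gene AT1G34340 rose to 0.86 and 0.89 on days 3 and 5, against 0.77, with 0.83 on day 1. *AGAL2* (AT5G08370), an alpha-galactosidase, rose to 0.98 on day 1, against 0.91, with 0.96 and 0.94 later. AT5G42660, with a domain of unknown function, fell to 0.20 on day 5, against 0.33, with 0.26 on days 1 and 3. Its annotation does not place it in this list, and a role in such metabolism is not shown. The esterase family gene AT1G09980 fell to 0.86 on day 1, against 0.96, and had 0.86 and 0.92 on days 3 and 5.

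AT4G24430 (chromosome 4, 12630018 to 12632975), of the rhamnogalacturonate lyase family of pectin-degrading enzymes, fell to 0.12, 0.14 and 0.12 on days 1, 3 and 5, against 0.25 at 16 °C. It lies next to AT4G24440, 47 bases upstream on the same strand, and both events carry the same assembled locus name, which no other pair of members does. The neighbours had a mean change of -0.123 and -0.143 and the same order of days. No donor pair was annotated in AT4G24430, and whether both rows rest on the same reads was not tested. 

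For the chloroplast NDH complex, which carries cyclic electron flow around photosystem I, both members were called on all days and went opposite ways. *PnsL1* (AT2G39470, named PPL2 in the table), a subunit of the complex, rose to 0.25, 0.26 and 0.28 on days 1, 3 and 5, against 0.19 at 16 °C. *CRR1* (AT5G52100), which is required for the complex to accumulate, fell to 0.63, 0.63 and 0.65, against 0.73.

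Membrane transport and trafficking held 3 higher and 3 lower events, none of them called on more than 1 day. *TRANS11* (AT4G18270) rose to 0.73 on day 1, against 0.60 at 16 °C, with 0.70 and 0.65 later. Its place in this list rests only on its annotated name, translocase, and a role in transport is not shown. The reticulon gene AT3G10260, of a family that shapes the endoplasmic reticulum, had 0.87 on each warm day, called on day 3, against 0.80. AT1G25480, an aluminium-activated malate transporter, rose to 0.11 on day 1, against 0.02, with 0.06 on days 3 and 5. *YSL3* (AT5G53550), a transporter of metals bound to nicotianamine, fell to 0.03 on day 3, against 0.14, with 0.09 and 0.11 on days 1 and 5. The PLAC8 family gene AT2G40935 fell to 0.57 on day 3, against 0.70, with 0.59 and 0.57 on days 1 and 5. The vacuolar sorting gene AT1G32410 fell to 0.02 on day 5, against 0.08, and had 0.06 and 0.07 before; its mean change of -0.03 was the smallest of all members.

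For the cytoskeleton and cell cycle, *FIM1* (AT4G26700), a fimbrin that cross-links actin filaments, fell to 0.90 and 0.89 on days 1 and 3, against 0.95 at 16 °C, with 0.91 on day 5. *CYCB1;5* (AT1G34460, chromosome 1, 12595110 to 12599354), a B-type cyclin of mitosis, fell to 0.57 on day 1, against 0.75, with 0.69 and 0.63 on days 3 and 5. *SCAB1* was the list's only higher event.

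Protein modification, turnover and signalling was the largest list, with 5 higher and 5 lower events. *UEV1D-4* (AT3G52560, chromosome 3, 19494678 to 19495954), a ubiquitin-conjugating enzyme variant without a catalytic cysteine, fell to 0.19, 0.18 and 0.17 on days 1, 3 and 5, against 0.33 at 16 °C. AT3G02300, of the RCC1 family, fell to 0.57 and 0.59 on days 1 and 3, against 0.71, with 0.61 on day 5. The HEAT/U-box gene AT5G58410 fell to 0.84 on day 1, against 0.92, with 0.82 and 0.88 later. AT2G36360, of the kelch repeat family, stood at 0.05 on each warm day, called on days 1 and 5, against 0.10. In the other direction, the N-acyltransferase family gene AT2G04845 rose to 0.20 on day 5, against 0.07, with 0.17 and 0.21 on days 1 and 3, and *MAK10* (AT2G11000), a subunit homologue of an N-terminal acetyltransferase, rose to 0.27 on day 1, against 0.14, with 0.25 and 0.23 later. The insulinase family peptidase gene AT3G57470 rose to 0.76 on day 1, against 0.61, with 0.73 and 0.69 later. *ASG2* (AT5G10940), a WD-40 repeat protein, rose to 0.92 on day 3, against 0.82, with 0.91 and 0.90 on days 1 and 5. The EF hand gene AT4G32060 rose to 0.64 on days 1 and 3, against 0.59, with 0.65 on day 5.

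The 8 genes of unknown function were lower in 6 and higher in 2. On day 1, 7 of them were called, against 38 of the 61 members and 382 of the 638 listed events, and this was not tested. AT5G60022, a long non-coding RNA gene, fell to 0.47 on day 1, against 0.67 at 16 °C, with 0.50 and 0.55 later. AT5G04880, a transcribed pseudogene, fell to 0.34 on day 5, against 0.49, with 0.32 and 0.35 on days 1 and 3. AT2G45380 fell to 0.64 and 0.66 on days 1 and 3, against 0.78, with 0.59 on day 5, and AT5G05800 to 0.47 and 0.46, against 0.61, with 0.46 on day 5. *DYL1* (AT1G28330), a dormancy-associated gene, fell to 0.16 on day 1, against 0.23, with 0.19 and 0.20 later. AT3G03560 rose to 0.32 and 0.33 on days 1 and 3, against 0.21, with 0.26 on day 5.

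Between days 1 and 5 at 25 °C, PSI of most members hardly moved. The median absolute difference was 0.03, as over all listed events, and 3 members differed by 0.1 or more (4.92%, against 11.4% of listed events). These were AT5G28400 (0.49 on day 5, against 0.25 on day 1), *OTP86* (0.39, against 0.54) and AT1G69280 (0.69, against 0.79), and *SPP2* came next (0.71, against 0.62). In each of these 4 the value of day 5 lay nearer to 16 °C than that of day 1. All 4 were called on day 1 and none on day 5, so their listing itself favours a larger change on day 1. Over all members, day 5 was nearer to the 16 °C value than day 1 in 33, further in 21 and equal in 7, against 317, 262 and 59 of the listed events. More members were called on day 1 (38) than on day 5 (28), as were more of the 638 listed events (382 and 337). The count of nearer and further members is therefore not free of how events came to be listed. No call was made between warm days, so none of these differences carries a test.

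**Figure D5:**
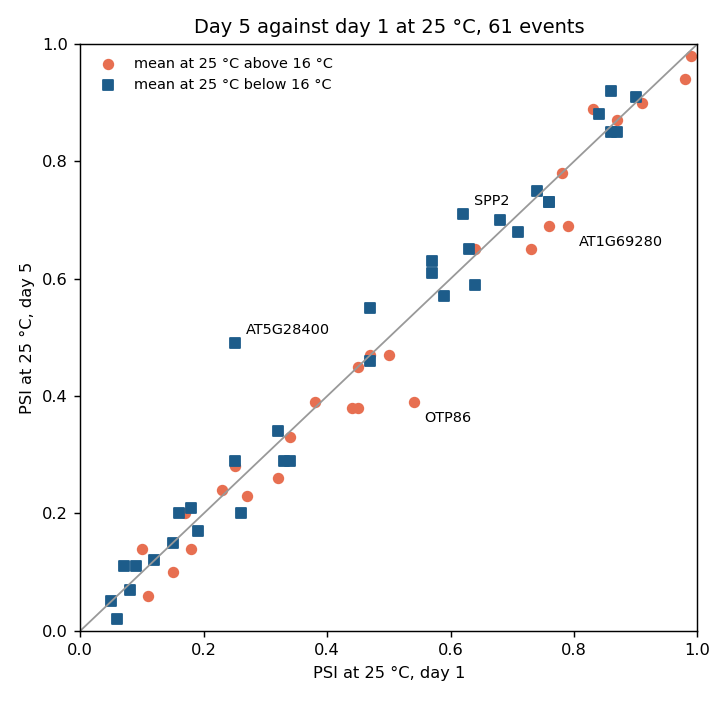
PSI of the 61 events on day 5 (vertical) against day 1 (horizontal), both at 25 °C, with the line of equal values; circles are events whose mean at 25 °C was above 16 °C and squares those below. Most points lie on or near the line, and the 4 named events differ most between the days, up to 0.24 in AT5G28400.

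The 16 °C values of the members spread over nearly the whole range, 0.02 to 0.96 with a median of 0.49. By the mean of the warm days, the dominant isoform rarely switched. The mean at 25 °C lay on the other side of 0.5 from the 16 °C value in 3 members (4.92%), against 92 listed events (14.4%). They were AT3G45750, AT5G28400 and AT5G05800, all lower at 25 °C, though AT5G28400 had 0.63 on day 3. Further members crossed 0.5 on a single called day. *OTP86* (0.54, against 0.26) and AT5G60022 (0.47, against 0.67) did so on day 1, and AT3G15460 (0.54, against 0.41) on day 3. Crossings on single days were not counted over all listed events. Of the 31 members below 0.5 at 16 °C, 17 were higher at 25 °C (54.8%, against 64.0% of such listed events), and of the 30 above 0.5, 10 were higher (33.3%, against 34.5%). On the log2 odds scale, which stretches values near the ends of the range, the median absolute change of members was 1.08, 1.03 and 0.978 on days 1, 3 and 5, against 1.06, 1.05 and 1.02 over all listed events.

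Other A5 events of the table, 51 in genes with several events or in the genes left out, were more often higher: 35 were higher and 16 lower by mean change, which compares with 27 and 34 for the members. Part of this contrast comes from the 11 genes left out, of which 8 were higher and 3 lower. With them put back, the 72 genes with a single A5 event were higher in 35 and lower in 37. Genes whose only event was an alternative 3′ site were higher in 76 and lower in 78, and those with a single retained intron in 73 and 83. These splits were not tested against each other.

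Some members overlap another annotated gene, which bears on how reads could be assigned. In 16 members the partner lies on the other strand, among them AT5G53850, AT3G45750, *HDG2*, *CYCB1;5*, *SPP2*, *CRR1* and AT5G60022, and in 3 on the same strand (AT5G04880, AT1G69280 and AT4G32060). The library kit keeps strand, but the sources used here do not say whether MISO was run with it, and the part of these overlaps in the values was not tested.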

How the data were processed

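The deposited values are PSI per group, a fraction from 0 to 1 that the authors rounded to 2 decimals. The methods describe MISO runs on single samples and on merged replicates; the table's 1 value per group was taken as that of the merged replicates. According to the study's methods, the authors mapped reads to TAIR10 with TopHat2, assembled transcripts with Cufflinks, found events with custom scripts and used MISO for PSI. Events needed at least 20 isoform-specific reads in at least 2 replicates and smaller differences within than between conditions, and a Bayes factor of at least 5 on merged replicates made a call. The submitters' processing notes name TopHat and Cufflinks; their versions were not given in sources used here. A text column of the deposited table names the days called; it holds the authors' own comparison and was used only to count calls and to choose between rose or fell and a plain value.

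Groups came from the sample titles. Changes are PSI at 25 °C minus PSI at 16 °C, computed with Python 3.11.15 and pandas 2.3.3. With 1 value per group no test was run and leaving out replicates was not possible. Call shares are set beside those of all 638 listed events; events tested by the authors and not listed are not analysed here. Members and lists were chosen with earlier results of these data known. Values in every group were set to be given for members called on all 3 days, the 6 highest and 6 lowest mean changes, the 4 largest differences between days 5 and 1, members sharing a locus and members with a symbol, with others as examples of their list; in the end all 61 are given. Donor sequences follow the 8 largest mean changes among genes with exactly 1 pair, plus 3 pairs chosen later. Table coordinates equal a coding span of the gene in the TAIR10.1 annotation in all 59 members that have them, so both share coordinates. Introns shorter than 20 bases were ignored. Counting and the donor search were checked on simulated tables and introns with known answers.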

Additional observations from a re-analysis of the deposited data

How the results depend on the processing

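With 1 value per group, depth is unknown, and errors between plants cannot be given. No paired analysis was possible because the deposited table has no values per replicate, and for the same reason no replicate could be left out. Counts of called members per day and direction changed little or moderately (8 higher members on day 5 came to 6 to 12, and 15 on day 1 to 10 to 19) with changes of at least 0.1 only, with the genes left out put back, and with 16 °C PSI limited to 0.05 to 0.95. The share of members with higher mean PSI, 44.3%, came to 18.2% among the 11 called on all 3 days; over the other settings it ranged from 37.5% to 48.6%, with 45% when the shared locus was counted once. The median absolute change was 0.13 on day 1 and 0.12 on day 5 among members called on that day, and 1.08, 1.03 and 0.978 on days 1, 3 and 5 in log2 odds, a different unit. The share of donor distances divisible by 3, 43.6% over all 78 pairs, was 57.7% in genes with exactly 1 pair. Causes were not tested.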
